A study of Caenorhabditis elegans with 2 samples.

Results

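The gene ets-4 (WBGene00017687) of the nematode Caenorhabditis elegans encodes ETS-4, the transcription factor whose chromatin binding the series mapped, so the regions at this gene are those at the factor's own locus. The gene lies on the plus strand of chromosome X, 6518883 to 6522667 on build ce11. A region was counted as an ets-4 region when its summit fell in the gene body or in the 5000 bp upstream of the annotated 5' end, a window of 8785 bp from 6513883 to 6522667. By this rule the gene held 4 of the 1102 peaks that the authors kept by their threshold on the irreproducible discovery rate (IDR peaks), and 14 of the 30000 candidate regions called on both replicates pooled. It held 13 of 30000 candidates in replicate 1 and 12 of 30000 in replicate 2. The deposit labels the pooled list as peaks and background, so a candidate region is not by itself a called binding site.

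The assay was chromatin immunoprecipitation with sequencing (ChIP-seq) with an antibody against GFP, on whole young adults of mixed sex at 73 h, in 2 biological replicates that form the only group. The worms were of strain RAF1713, which carries the insertion rrrSi400 on chromosome II, a copy of ets-4 fused to GFP under the Pets-4 promoter and followed by the ets-4 3'UTR, with unc-119(+) as marker. All animals also carried unc-119(ed3) on chromosome III. The labels call the tag eGFP in one field and a C-terminal GFP-FLAG tag in another, and their antibody field names ets-4. Whole animals were used, so no tissue can be assigned to a site. Reads from the inserted copy match the ets-4 locus on X wherever the copy has the same sequence, and how far the copy reaches upstream is not given in the sources used here. Extra copies of the DNA and binding of the protein therefore cannot be told apart in any value at ets-4 below. No tag-free precipitate was analysed here. The control with which the lists were called was not analysed either, so how far it offsets extra copies is unknown. The read depth behind the lists is unknown, and with it the counting error of every region.

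ETS factors bind DNA through a conserved domain that recognises a GGAA or GGAT core. ETS-4 acts in fat metabolism, ageing, cold survival and the regrowth of injured axons. The ribonuclease REGE-1 cleaves ets-4 mRNA within its 3' UTR and so limits the protein. Ensembl annotates 2 protein-coding transcripts of ets-4. Isoform b starts at 6518883, has 12 exons and encodes 463 amino acids. Isoform a starts at 6519819, 936 bp further downstream, with no annotated 5' UTR, and has 9 exons and 376 codons. Both end with the same stop codon and a 3' UTR of 742 bases in b and 753 in a.

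Short stretches of the reference at 3 of the IDR peaks show where the searched words lay near the summits. The capitals mark the GATA-factor word TGATAA or the ETS core GGAA, each read 5' to 3' on the strand named, in RefSeq sequence of the same assembly. The first pair is from the promoter peak, the third from the peak at the start of isoform a and the last from the peak in coding sequence.
Promoter peak, chrX:6518707-6518736, minus strand: ccagaaataagcTGATAAgtaacaaaatga
Promoter peak, chrX:6518674-6518703, minus strand: tgatggcgccaatGGAAaactgaattgaaa
Isoform a start, chrX:6519880-6519909, minus strand: gaggggtcagtgTGATAAtcagtaaaacta
Coding peak, chrX:6520810-6520839, plus strand: caactccaagtgtGGAAgaccggtacgtca
By plus-strand position, the promoter's TGATAA began 22 bp after the summit and the GGAA shown 10 bp before it. A second GGAA, on the plus strand, began 38 bp after the promoter summit. The TGATAA at isoform a began 20 bp before the summit, and the GGAA of the coding peak 4 bp before it.

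The highest signal at ets-4 was upstream of the gene's first exon. This promoter peak (6518512 to 6518881) had its summit at 6518697, 186 bp upstream of the 5' end of isoform b, and the authors' signal value was 206.6. It ranked 39 of the 1102 IDR peaks and 8 of the 282 on chromosome X. In replicate 1 the region over it had signal 110.3 and rank 12 of 30000, and in replicate 2 signal 99.6 and rank 111. Signal values are each list's own and were not compared between lists. As a multiple of the list median, the region stood at 6.55 in the pooled list, 6.69 in replicate 1 and 4.84 in replicate 2, the top value of the window in each.

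The second IDR peak (6519727 to 6520096, signal 116.7, rank 350) had its summit at 6519912, in an intron of both transcripts. That point is 1029 bp downstream of the start of isoform b but only 93 bp downstream of the annotated start of isoform a. Isoform a has no annotated 5' UTR, so its annotated start is its first coding base and may not be where transcription begins. A promoter drawn from 1000 bp upstream to 200 bp downstream of each annotated transcript start, in place of each gene's, includes the summit. The same holds for 90 of the 667 IDR summits outside promoters of gene starts (13.5%). The region had rank 126 in replicate 1 (signal 67.4) and rank 594 in replicate 2 (signal 61.4).

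The third (6520642 to 6521011, signal 121.0, rank 305) had its summit at 6520827, in coding sequence shared by both transcripts. It was the one ets-4 IDR peak ranked nearer the top in replicate 2 (rank 292, signal 76.0) than in replicate 1 (rank 368, signal 50.1). The fourth (6522124 to 6522493, signal 91.8, rank 743) had its summit at 6522309 in the 3' UTR, 358 bp before the annotated gene end. Its rank was 115 in replicate 1 (signal 68.3). The overlapping region of replicate 2 had rank 2609 (signal 37.6). That region's summit was 228 bp away, nearer to another pooled candidate with its summit at 6522525. The signals of the 4 peaks compare with a median of 102.4 and a minimum of 79.4 over the IDR list, so the 3' UTR peak was below the median and the other 3 above it.

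**Figure D1:**
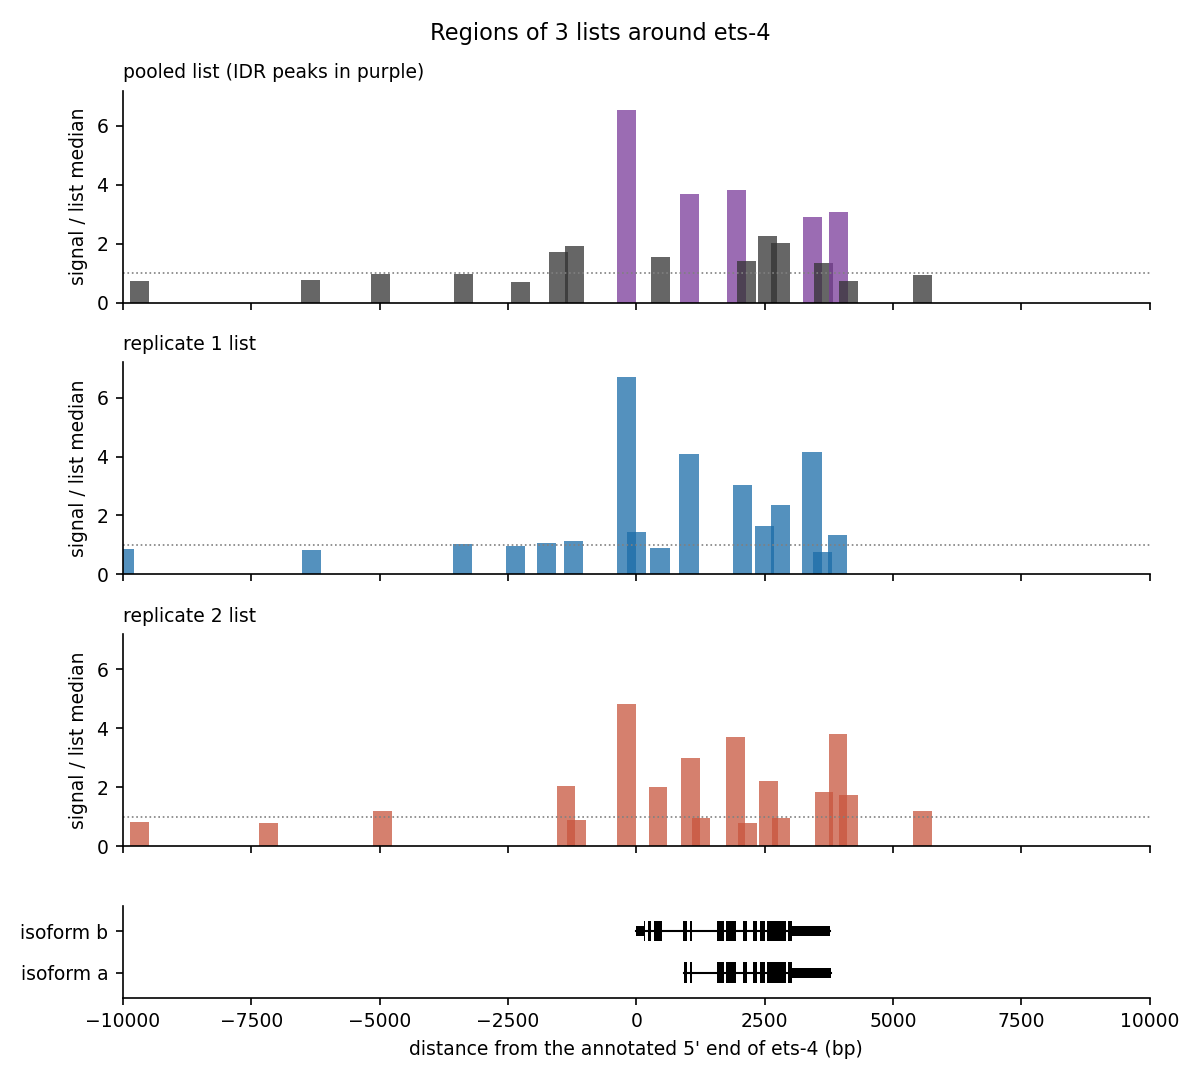
Regions of the pooled list and of each replicate's list within 10000 bp of the annotated 5' end of ets-4 (x axis, bp), with the authors' signal divided by the median of the list (y axis, dotted line at 1) and the exons of both isoforms below (taller boxes are coding). The promoter region is the highest bar in all 3 lists, at 6.55, 6.69 and 4.84, and the replicates place their high bar near the 3' end at different positions.

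The replicates placed the promoter summit 2 bp apart and the summit at isoform a 30 bp apart, where the median gap over the 1099 IDR peaks with a region in both replicates was 29 bp. The other 2 were further apart. In coding sequence the gap was 135 bp, which 3.82% of IDR peaks matched or exceeded. The summit of replicate 1 was at 6520947, in the adjoining intron, and that of replicate 2 at 6520812, in the exon. Another pooled candidate had its summit at 6521028, nearer to that of replicate 1 than the IDR summit was. Replicate 2 also had a weak region there, with its summit at 6521051 (signal 16.3), so the gap of 135 bp may compare different sites. In the 3' UTR the gap was 231 bp, matched or exceeded by 0.637% of IDR peaks. The summit of replicate 1 was at 6522306, 3 bp from the pooled one, while the overlapping region of replicate 2 had its summit at 6522537. Replicate 1 also had a weak region with its summit at 6522508 (signal 12.3), so this gap may compare different sites. Among the 1102 strongest regions of each replicate, the first 3 IDR peaks were overlapped in both, and the 3' UTR peak in replicate 1 alone.

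Of the 4 peaks 3 ranked nearer the top in replicate 1, as did 43.2% of the 1099 IDR peaks. The larger rank was 9.25 times the smaller at the promoter, 4.71 times at isoform a, 1.26 times in coding sequence and 22.7 times in the 3' UTR. The ratios in coding sequence and in the 3' UTR have the limit given above, that the overlapping regions may be different sites. The median over IDR peaks was 2.39, and 3.0% had a ratio at least as large as that of the 3' UTR peak. With 2 samples of one group the data allow no test of these differences.

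A further IDR peak lay just past the window (6522638 to 6523007, signal 97.3, rank 647). It overlapped the last bases of ets-4, but its summit at 6522823 was 156 bp beyond the gene end. That point is inside ceh-60, a homeobox gene that runs towards ets-4 from the opposite strand. By rank this region was the reverse of the 3' UTR peak. It had rank 257 in replicate 2 (signal 78.1) and 6860 in replicate 1 (signal 21.98), a ratio of 26.7 that 2.46% of IDR peaks reached. The 2 pooled summits were 514 bp apart. At the 3' end of ets-4, then, replicate 1 had its strong region in the 3' UTR and replicate 2 past the gene end. The outermost member at the other edge of the window was a weak pooled candidate at -4980 bp (signal 30.3, rank 16318).

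**Figure D2:**
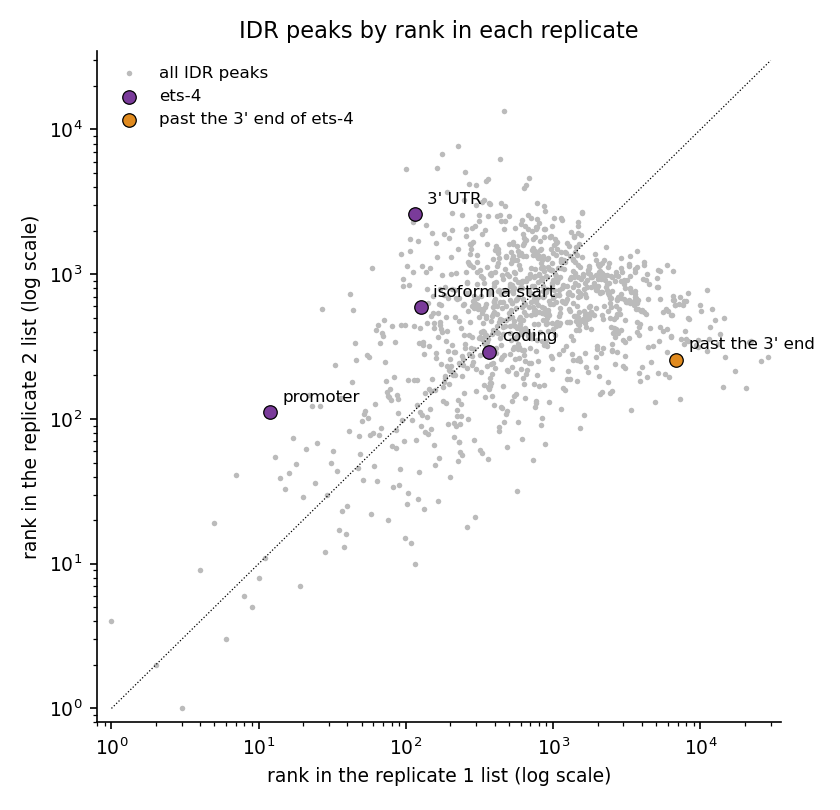
Rank of each IDR peak in the list of replicate 1 (x axis) and of replicate 2 (y axis), both on log scales with 1 as the strongest, for the 1099 peaks with a region in both; the dotted line marks equal ranks. The promoter, isoform a and 3' UTR peaks of ets-4 lie above the line, at 12 and 111, 126 and 594, and 115 and 2609, while the peak past the 3' end lies far below it, at 6860 and 257. For the 3' UTR peak the replicate 2 rank is that of an overlapping region with its summit 228 bp away.

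The weaker candidates filled much of the space between the peaks. Of the 14 pooled candidates 8 had their summit in the gene body and 6 upstream, and 11 (78.6%) were at or above the median signal of their list. Replicate 1 had 10 of 13 at or above its median and replicate 2 had 8 of 12. Outside the IDR list, the highest pooled signals were in the large coding exon near the end of the reading frame. There the summits at 6521444 and 6521694 had signals 71.0 and 63.8 and ranks 1550 and 2078. The replicates differed on which of these was stronger. The region with its summit at 6521695 had rank 956 in replicate 1, where its counterpart in replicate 2 at 6521704 had rank 16300. The one at 6521461 had rank 1428 in replicate 2, and in replicate 1 the nearest summit, at 6521386, had rank 3292.

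Upstream of the promoter peak, pooled candidates had their summits at -1198 bp (signal 60.8, rank 2369) and -1521 bp (signal 53.9, rank 3370). In replicate 2 a region at -1366 bp had rank 1870, and one at -1167 bp had rank 20117, below the list median. In replicate 1 the nearby regions at -1215 and -1751 bp had ranks 10974 and 13327, above the list median but far from the top. A pooled candidate in an exon that isoform b alone has, at 481 bp, had signal 48.6 and rank 4571, from ranks 1951 in replicate 2 and 19297 in replicate 1. Further upstream the 3 remaining pooled candidates, at -2253, -3362 and -4980 bp, were all below the list median, with signals from 22.4 to 30.5. Non-coding RNA genes are annotated in this upstream stretch (F22A3.10, F22A3.11, F22A3.12, F22A3.13, F22A3.16 and F22A3.17) and inside ets-4 (F22A3.14 and F22A3.15). The last 2 pooled candidates, at 2145 and 3642 bp, each overlapped an IDR peak and had ranks 5905 and 7094. The remaining candidates of the window had ranks from 5298 to 27239 in replicate 1 and from 9641 to 24492 in replicate 2. In the whole window 7 of the 13 summits of replicate 1 had a summit of replicate 2 within 100 bp, and 7 of 12 the other way. Over the full lists 27.0% did in either direction, a share not matched to the window for signal or for density of summits.

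The same positional rule was applied to all 19973 protein-coding genes to set the ets-4 count beside the background. At least 1 IDR summit was found for 1632 genes, 8.17%, and at least 4 for 4 genes, 0.02%. The other 3 genes were mnk-1, which encodes a MAP kinase-interacting kinase (6 summits in 17624 bp), zfp-1, a zinc-finger protein gene (5 in 19771 bp), and unk-1 (4 in 16887 bp). These windows are far longer than the 8785 bp of ets-4. Among the 7273 genes whose window was within 20% of that length, 8.66% had at least 1 IDR summit, 9 genes had 3 and only ets-4 had 4 (0.0137%). Per length, ets-4 had 0.455 IDR summits per kb and stood first of all 19973 windows. It was followed by ccdc-149 (0.428, from 3 summits) and lap-2 (0.403, from 3), which were singled out after their values were seen. With the 1102 strongest regions of one replicate in place of the IDR list, ets-4 held 5 in replicate 1, reached by 0.01% of genes, and 3 in replicate 2, reached by 0.155%.

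Without reference to genes, the 5 IDR summits from the ets-4 promoter to the peak past the 3' end spanned 4126 bp, where successive IDR summits on a chromosome were at a median distance of 51300 bp. This was the single place in the genome where 5 successive IDR summits fell within so short a span. The closest 4 spanned 2911 bp, also a single place, and the closest 3 spanned 1996 bp, a span that 2 other places matched or undercut. This count was added after the data were seen.

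Pooled candidates, which include background regions, covered 51.0% of the ets-4 window, against a median of 10.4% over all genes. In this list 11 genes, ets-4 included, were covered at least as much. At least 14 pooled summits were found for 0.476% of genes. Replicate 1 covered 50.6% of the window (5 genes as much, and 0.501% of genes with at least 13 summits), and replicate 2 covered 40.8% (87 genes as much, and 0.751% with at least 12 summits). In the gene body alone the shares were 65.4% in the pooled list, 67.7% in replicate 1 and 64.3% in replicate 2. Of the 10117 genes with a body of at least 2000 bp, 3, 2 and 4 were covered as much, ets-4 included.

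**Figure D3:**
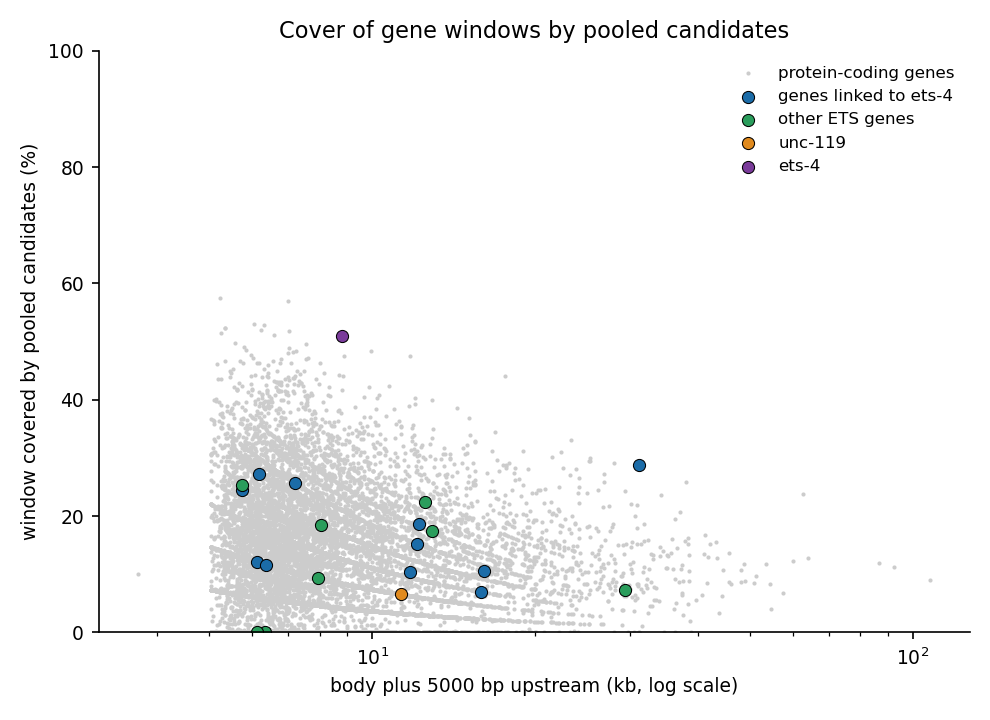
Share of each gene's window (body plus 5000 bp upstream) covered by pooled candidate regions (y axis, %) against the window's length (x axis, kb, log scale), with 1 grey point per protein-coding gene and with ets-4, the 11 genes linked to it, the 8 other ETS genes and unc-119 in colour. The ets-4 window is at 51.0%, while the other coloured genes lie between 0 and 28.8%.

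Genes of the pathways in which ETS-4 acts were compared by the same rule. Of 11 such genes 5 had an IDR peak in the window, none more than 2. Of all protein-coding genes 8.17% had at least 1, a share not matched for window length. The nuclease gene rege-1 had 2 IDR peaks, the stronger of rank 17 and signal 234.5, above the ets-4 promoter peak, but only 4 pooled candidates, which covered 10.4% of its window. The FOXO factor gene daf-16 had 2 IDR peaks and 25 pooled candidates over a window of 31206 bp, and the highest cover of the 11 at 28.8%. One IDR peak each was found for the ferritin gene ftn-2 (rank 537, signal 103.1), the zinc-finger factor gene pqm-1 (rank 654, signal 96.8) and the bZIP factor gene cebp-1 (rank 105, signal 164.1). None was found for ftn-1, the second ferritin gene, kin-2, a regulatory subunit of protein kinase A, the lipase gene fil-1, the ubiquitin ligase gene rle-1, the growth factor gene svh-1 or the receptor kinase gene svh-2. Their best pooled candidates ranked from 2100 at ftn-1 to 11660 at fil-1.

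Of the other 8 ETS genes 2 had IDR peaks, beside the 8.17% of all genes, a share not matched for window length. The gene ets-5 had 2 (best rank 278, signal 123.5) and lin-1 had 1 (rank 968, signal 83.7). Their windows, of 12892 and 29426 bp, were the longest of the 8. For ets-7 and ets-8 no pooled candidate was in the window. For ast-1, ets-6, ets-9 and ets-10 the best pooled ranks were 1653, 8561, 22050 and 3395. Cover by pooled candidates ranged from 0 to 25.4% over these 8 genes. The gene unc-119 on chromosome III, of which the insertion carries a working copy, had no IDR peak and 2 pooled candidates, the better with rank 7300, which covered 6.55% of its window. From which species the unc-119(+) copy came is not given in the sources used here, so whether its reads could align to unc-119 is unknown.

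The sequence around the 4 ets-4 summits, 50 bp to each side, was searched on both strands for 5 words. The ETS word CCGGAA was in none of the 4 windows, in 3.72% of IDR windows and in 5.06% of pooled candidate windows. The related CCGGAT was in none of the 4 either, in 1.63% of IDR windows and in 2.89% of pooled candidate windows. The ETS core GGAA was in 3 of 4, against 55.5% of IDR windows and 65.7% of pooled candidate windows. Its match in the 3' UTR window was part of AGGAAG, a word in 4.81% of IDR windows and 5.46% of candidate windows, and the peak at isoform a had no GGAA. The other core, GGAT, was not searched by itself. The GATA-factor word TGATAA was in 2 of 4, at the promoter and at isoform a, against 27.0% of IDR windows and 10.5% of candidate windows. The GC content of the 4 windows was 33.7% at the promoter, 41.6% at isoform a, 50.5% in coding sequence and 36.6% in the 3' UTR, where the median of IDR windows was 46.5%. With 4 windows, none of these shares can be set apart from the background.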

How the data were processed

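The deposited files are 4 narrowPeak lists on build ce11. The README text deposited with them names the inputs of each: alignments of a single replicate with a control for the replicate lists, alignments of both with that control for the pooled list, and all 3 of those lists for the IDR list. The deposited signal value is the peak caller's own. The deposited -log10 q value has 1 ceiling per list, which all 4 ets-4 IDR peaks share at 3.44, and was used only in an alternative. The IDR list is the 1102 pooled regions with the highest signal, so it is not independent of the pooled list. Neither the software behind alignment and peak calling nor the IDR threshold is given in the sources used here.

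Regions were ranked by signal within each list. Positions are 1-based and were compared with Ensembl release 115 (WBcel235). The last region of each of the 6 chromosomes ended within the reference length. RefSeq starts ets-4 53 bp further downstream. A replicate's region for an IDR peak was the strongest one overlapping it by at least 1 bp. With 1 group of 2 replicates no test was made. Counting was tested on simulated regions (200 of 200 gene windows recovered). The named genes were every ets-4 IDR peak and the 5 strongest other candidates per list, genes overlapping or next to the window, the comparison genes, and genes with as many IDR summits. The members and gene lists were chosen with earlier results of these data known. Python 3.11.15, numpy 2.4.6, pandas 2.3.3 and matplotlib 3.10.9 were used.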

Additional observations from a re-analysis of the deposited data

How the results depend on the processing

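No paired analysis was possible because the samples form 1 group. The count of 4 IDR peaks at ets-4 stayed between 3 and 5 under all alternatives run. Some alternatives counted the strongest regions of 1 replicate, or every pooled region at the q ceiling, in place of IDR peaks. The count was 4 with the RefSeq gene start, chosen after seeing the data, and 5 when any overlap with the window counted. The share of genes with at least as many rose from 0.02% to 0.0451% with the gene body alone, with 10000 bp upstream and with every pooled region at the q ceiling. Without one replicate it ranged from 0.01% to 0.155%. The number of pooled candidates fell from 14 to 8 in the gene body alone and to 9 with 1000 bp upstream, since fewer bases were searched. The 3 IDR peaks in both replicates' strongest regions became 2 with the 551 strongest regions per replicate or with summits required within 100 bp. GGAA was in 2 of 4 windows at 25 bp to each side and in 4 of 4 at 100 bp. Depth is unknown, which leaves the precision of each rank unknown.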

Other observations

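The genes beside ets-4 were much less covered. Downstream, ceh-60, which encodes a homeodomain factor known for its part in yolk protein expression, had 1 IDR summit, that of the peak past the 3' end of ets-4, and its window was covered to 19.6% by pooled candidates. The next gene, ilys-5, an invertebrate lysozyme gene, had 1 IDR summit of rank 435 (signal 109.9) and 22.2% cover. Upstream, ttr-35, ttr-36 and glr-8 had no IDR summit, and their windows were covered to 19.7%, 11.8% and 16.5%. The IDR peak before the ets-4 promoter was 61929 bp away, and the next after the peak past the 3' end was 14139 bp away. From 6000 to 10000 bp downstream of the ets-4 start no candidate summit was found in the pooled list or in either replicate.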
